A study of Homo sapiens with 24 samples.

Results

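ABCB5, RARRES2, SLC2A5, DTWD2, R3HDML and TMEM92 are 6 of the 36468 entries of a gene count table from cultured human sensory neurons, and they are described here over 4 treatments. They were picked as genes that stood out in earlier comparisons of these libraries under transforming growth factor beta (TGF-β) or under interleukin 4 with interleukin 13 (IL-4+IL-13), against vehicle or against each other, and were put forward as genes that both treatments moved alike. Those same comparisons are therefore given as a description, without a test of the 6 genes. Each gene had 1 entry in the table, and all 6 were among the 29377 entries with a total of at least 10 counts that were tested. By the values that chose them, ABCB5 and DTWD2 were lower than vehicle under both treatments in 6 of 6 batches. RARRES2 and SLC2A5 were lower mainly under TGF-β, and R3HDML and TMEM92 lay on opposite sides of vehicle under the 2 treatments.

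The cultures came from H9WAO9 (H9), an established human embryonic stem cell line of wild-type genotype, which had been turned into vagal neural crest cells, formed into spheroids and matured into sensory neurons. Mature cultures received TGF-β at 2 ng/ml, or IL-4 at 10 ng/ml together with IL-13 at 3 ng/ml, for 5 days, and vehicle cultures received phosphate-buffered saline with bovine serum albumin. A further group is labelled IL-6, whose dose and duration are not given in the sources used here. Each of 6 differentiation batches gave 1 polyadenylated RNA library per group, 24 in all, so by the labels every treated library has a vehicle library from its own batch. All batches share 1 cell line, so the spread between them is that of repeated differentiations and not of donors. In such libraries of whole, mixed cultures, fewer cells of a type and less RNA per cell cannot be told apart.

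TGF-β binds a receptor kinase pair at the cell surface and acts through SMAD proteins, which bind DNA at short motifs. IL-4 and IL-13 share the IL-4 receptor alpha chain and act mainly through STAT6, and IL-6 acts through gp130 and STAT3. In airway disease TGF-β is tied to tissue remodelling and IL-4 with IL-13 to type 2 inflammation, and sensory nerves lie within reach of all of them.

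Libraries held 33342682 to 39817784 counts. After group means were removed, 4 of the 24 libraries correlated more with another batch than with their own. The vehicle library of batch 2 had a mean r of 0.43 with the libraries of batch 4 against 0.04 with those of batch 2, and the vehicle library of batch 4 had 0.40 with batch 2 against 0.15 with batch 4. In batch 4 the TGF-β library and the one under IL-4+IL-13 also lay nearer to batch 3. Whether the vehicle libraries of batches 2 and 4 were exchanged cannot be told from the labels, no library was relabelled, and every within-batch difference from vehicle in those 2 batches rests on the labels. Values without batches 2 and 4, and for batches 3 to 6 alone, are given where they bear on a gene. Known targets separated the groups unequally. Of 6 targets of IL-4 and IL-13, 5 were called higher under IL-4+IL-13 against vehicle, beside 0.228% of all entries. They were led by ALOX15 at a log2 fold change of 10.58. Of 10 TGF-β targets, 1 was called higher under TGF-β against vehicle, COL10A1 at 4.51, beside 0.0408%. In TGF-β against IL-4+IL-13, 5 of the 10 were called higher, beside 0.47%. Under IL-4+IL-13 against vehicle 3 of the 10 were called lower, beside 0.143%. Of 8 IL-6 targets 0 were called under IL-6 by edgeR or DESeq2 (1 at an unadjusted p under 0.05). Their median log2 fold change was -0.05 beside -0.01 over all entries tested. Since edgeR called 0 of all entries there and DESeq2 120, nothing is read from that 0. Neuronal and sensory markers were present in every library (SCN9A at 577 to 5676 counts, TRPV1 at 283 to 526), and the pluripotency gene NANOG had at most 5 counts.

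Promoters are shown to set R3HDML, which was higher under TGF-β, beside members that were lower under it. The RefSeq promoter table (GRCh38.p14) holds 4 of the 6 members, given here as the 250 bases before the start, 5′ to 3′ on the strand of the gene. Capitals mark matches to CAGACA, a box bound by SMAD3 and SMAD4, or to GTCTAGAC, the SMAD palindrome. They also mark TATAAA, an element that positions transcription starts, and both strands were searched. Paired TTC and GAA at the spacing of STAT6 (4 bases) or of other STATs (3 bases) were searched for too.
R3HDML: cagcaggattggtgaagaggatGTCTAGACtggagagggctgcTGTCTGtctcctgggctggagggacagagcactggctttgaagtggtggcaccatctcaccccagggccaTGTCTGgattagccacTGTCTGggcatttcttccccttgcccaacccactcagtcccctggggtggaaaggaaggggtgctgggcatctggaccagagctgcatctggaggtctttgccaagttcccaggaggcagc
RARRES2: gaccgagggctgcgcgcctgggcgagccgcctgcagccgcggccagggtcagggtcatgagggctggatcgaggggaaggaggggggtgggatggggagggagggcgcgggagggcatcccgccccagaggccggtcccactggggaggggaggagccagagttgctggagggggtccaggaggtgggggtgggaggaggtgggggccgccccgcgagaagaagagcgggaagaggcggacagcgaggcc
SLC2A5: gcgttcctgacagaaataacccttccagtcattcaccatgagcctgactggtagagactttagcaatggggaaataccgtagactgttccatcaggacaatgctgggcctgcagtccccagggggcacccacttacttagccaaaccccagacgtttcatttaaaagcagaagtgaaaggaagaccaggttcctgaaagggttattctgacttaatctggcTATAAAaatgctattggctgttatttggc
DTWD2: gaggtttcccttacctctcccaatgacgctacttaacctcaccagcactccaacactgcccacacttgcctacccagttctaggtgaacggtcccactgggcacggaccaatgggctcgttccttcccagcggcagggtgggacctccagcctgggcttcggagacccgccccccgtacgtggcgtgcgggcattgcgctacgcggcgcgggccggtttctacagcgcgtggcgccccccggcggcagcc
The R3HDML window, chr20:44336793-44337042 on the plus strand, held GTCTAGAC at 228 bases before the start and 3 copies of CAGACA, read as its reverse complement, at 207, 137 and 121 bases. GTCTAGAC occurred in 0.182% and CAGACA in 13.6% of 35116 promoter windows of this length. The RARRES2 window, chr7:150341630-150341879 on the minus strand, and the DTWD2 window, chr5:118988548-118988797 on the minus strand, held none of these letters. The SLC2A5 window, chr1:9069636-9069885 on the minus strand, precedes a start inside the annotated gene and held TATAAA at 29 bases before it, a motif found in 10.7% of windows. The STAT6 spacing, present in 5.38% of windows, and the other, present in 6.57%, were in none of the 4. A match of letters is a description of the sequence and not a binding site.

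**Figure D1:**
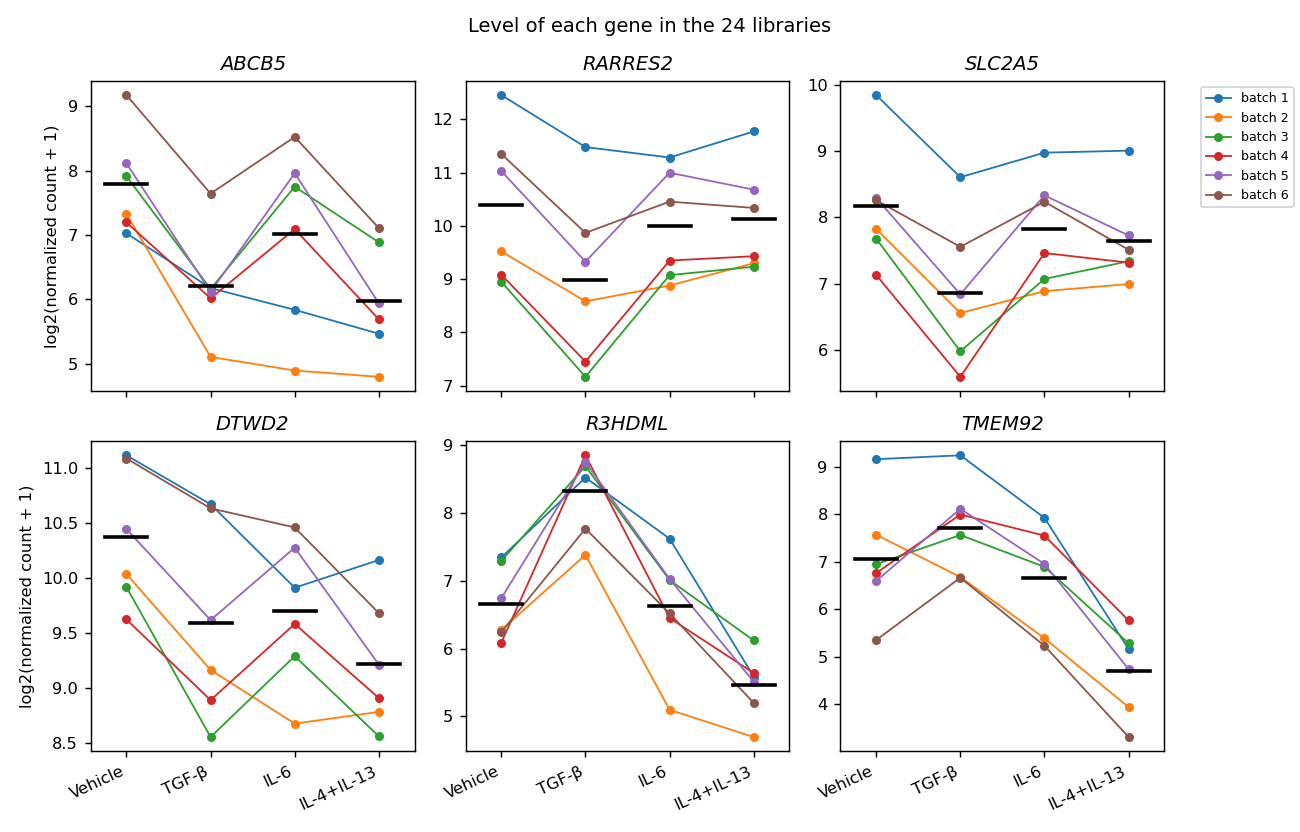
Level of each gene, as log2(normalized count + 1), in the 24 libraries by treatment, with a coloured line joining the 4 libraries of a batch and a black bar at the mean of the 6 libraries of a group. ABCB5 and DTWD2 start highest at vehicle in every batch, and RARRES2 and SLC2A5 dip at TGF-β. R3HDML peaks at TGF-β in every batch and TMEM92 in 5 of 6, and both are lowest at IL-4+IL-13.

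ABCB5 (chromosome 7, 20615667 to 20757008) encodes a drug efflux transporter of the ATP-binding cassette family that is known from pigment cells and from stem cells of the eye surface. It had 129 to 576 normalized counts in the vehicle libraries, with a median of 199.8, where counts are scaled by DESeq2's size factors. Under TGF-β it had 33.5 to 199 with a median of 69.6, and under IL-4+IL-13 26.8 to 137 with a median of 55.6. The ranges overlapped, because batches differed widely, but within each batch vehicle was the highest of the 4 libraries. On the scale of log2(normalized count + 1), used for all within-batch differences below, TGF-β differed from vehicle by a mean of -1.59 ± 0.51 (SD, n = 6 batches), a 3.00-fold lower level. IL-4+IL-13 differed from it by -1.81 ± 0.54 (SD, n = 6), a 3.50-fold lower level. Between these treatments the difference, TGF-β minus IL-4+IL-13, was 0.22 ± 0.50 (SD, n = 6), smaller than its spread over batches.

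DTWD2 (chromosome 5, 118836074 to 118988547), an enzyme that modifies a uridine of transfer RNA, behaved most like it. Vehicle libraries had 788 to 2223 normalized counts with a median of 1222. TGF-β libraries had 374 to 1632 with a median of 679, and IL-4+IL-13 libraries 376 to 1147 with a median of 536. Vehicle was again highest in each batch although the ranges overlapped. The within-batch difference from vehicle was -0.78 ± 0.34 (SD, n = 6) with TGF-β, and with IL-4+IL-13 it was -1.15 ± 0.27 (SD, n = 6), lower in 6 of 6 batches each. TGF-β exceeded IL-4+IL-13 by 0.37 ± 0.36 (SD, n = 6), higher in 4 batches and lower in 2. Being lower than vehicle under both treatments in every batch was a pattern of 69 of all 29377 entries tested (0.235%). Of the 6 members 2 had it, ABCB5 and DTWD2. Differences from vehicle were among the values that chose the genes, so nothing is read from that share.

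The IL-6 libraries, a further treated group with its own cultures, placed these genes less simply. For ABCB5 they had 28.8 to 367 normalized counts with a median of 175, and overlapped every other group. In batches 1 and 2 IL-6 differed from vehicle by -1.19 and -2.43, close to the other treated libraries of those batches. In batches 3, 4 and 5 it differed from vehicle by only -0.16, -0.10 and -0.15, and in batch 6 by -0.65. Its mean difference from vehicle was thus -0.78 ± 0.91 (SD, n = 6) over all batches and -0.27 ± 0.26 (SD, n = 4) over batches 3 to 6. DTWD2 was split between batches in a like way. Its IL-6 libraries had 408 to 1409.7 normalized counts with a median of 864, and the difference from vehicle was -1.21 and -1.36 in batches 1 and 2 and between -0.63 and -0.04 in the others. IL-6 was nevertheless below vehicle in 6 of 6 batches for both genes.

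Set against IL-6 in place of vehicle, ABCB5 under IL-4+IL-13 was lower in 6 of 6 batches, a difference of -1.03 ± 0.72 (SD, n = 6). Under TGF-β it was lower in 4, a difference of -0.81 ± 0.91 (SD, n = 6), and the other 2 were batches 1 and 2. Over batches 3 to 6 the differences from IL-6 were -1.35 ± 0.44 (SD, n = 4) for TGF-β, and -1.42 ± 0.47 (SD, n = 4) for the other treatment, lower in 4 of 4 batches each. DTWD2 under TGF-β was lower than IL-6 in 3 batches and higher in 3, a difference of -0.11 ± 0.67 (SD, n = 6). Under IL-4+IL-13 it was lower in 4, a difference of -0.48 ± 0.53 (SD, n = 6), and over batches 3 to 6 by -0.81 ± 0.17 (SD, n = 4). Without batches 2 and 4 the IL-6 difference from vehicle was -0.54 ± 0.49 for ABCB5 and -0.66 ± 0.42 for DTWD2 (SD, n = 4).

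The distance of vehicle from the mean of the 3 treated libraries of its batch, beside the range of those 3, describes how far the treated libraries lay together. For ABCB5 the distance was 1.39 ± 0.53 and the range 1.24 ± 0.62 (SD, n = 6), and the distance was the larger in 2 batches. In batch 2 vehicle stood 2.39 above 3 treated libraries that spanned 0.31, whereas in batch 5 it stood 1.44 above libraries that spanned 2.02. For DTWD2 the distance was 0.87 ± 0.25 and the range 0.78 ± 0.20 (SD, n = 6), with the distance larger in 3 batches. The treated libraries therefore lay together, apart from vehicle, most clearly in batch 2, whose vehicle library resembled batch 4. The part of that library in the pattern was not tested. Without batches 2 and 4 ABCB5 differed from vehicle by -1.53 ± 0.49 (SD, n = 4) with TGF-β, and with IL-4+IL-13 by -1.71 ± 0.53 (SD, n = 4), near the values of all 6 batches, while its IL-6 difference was the smaller one given above. Over batches 3 to 6, which leave out batches 1 and 2, the TGF-β difference was -1.61 ± 0.35 (SD, n = 4), and IL-6 differed by -0.27 for ABCB5 and -0.37 for DTWD2, nearer to vehicle than over all batches.

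**Figure D2:**
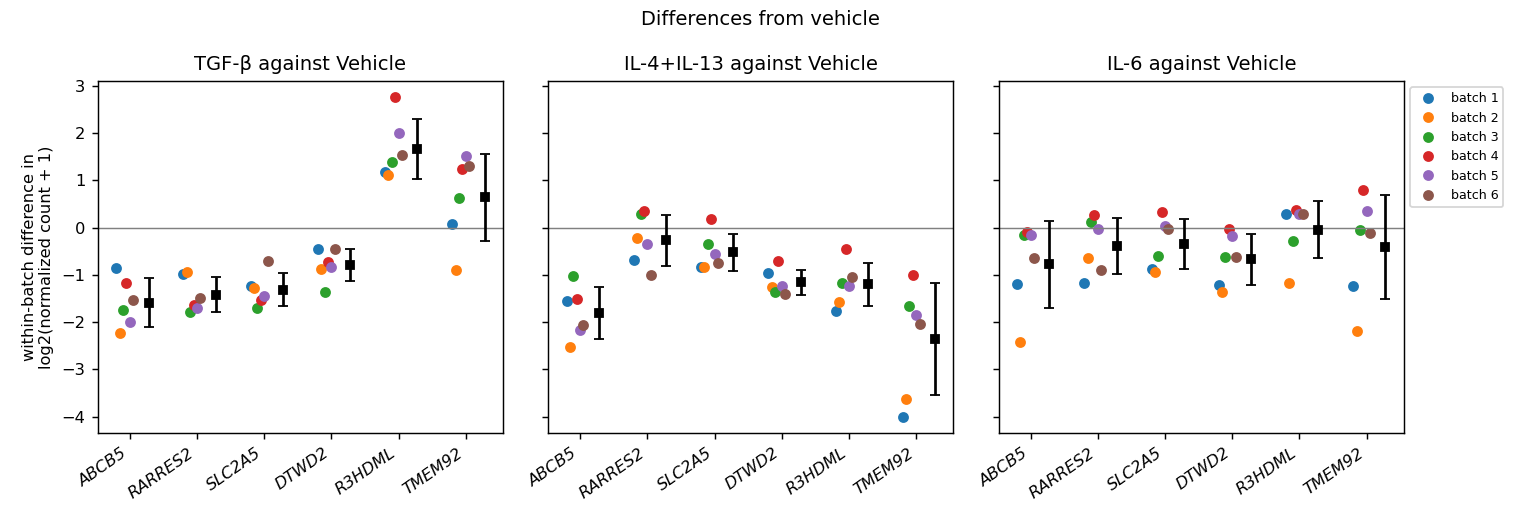
Within-batch difference of log2(normalized count + 1) from vehicle in the 3 treated groups, 1 to a panel, with 1 coloured point per batch and a black square with bars for the mean and SD of 6 batches. ABCB5 and DTWD2 lie below 0 in all panels, with the IL-6 points of batches 1 and 2 lowest, while R3HDML lies above 0 under TGF-β and below 0 under IL-4+IL-13.

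Over all entries, vehicle was rarely the group at one end. It was the highest library of its batch in 6 of 6 batches for 16 entries (0.0545%), lowest for 5 (0.017%), and thus at one end for 21 (0.0715%). TGF-β was lowest in every batch for 127 entries (0.432%) and highest for 78 (0.266%), and IL-4+IL-13 lowest for 77 (0.262%) and highest for 146 (0.497%). IL-6 was lowest for 2 (0.00681%) and highest for 5 (0.017%). ABCB5 and DTWD2 are 2 of the 16 entries with vehicle highest, and since both were chosen on differences from these vehicle libraries nothing is read from that share.

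**Figure D3:**
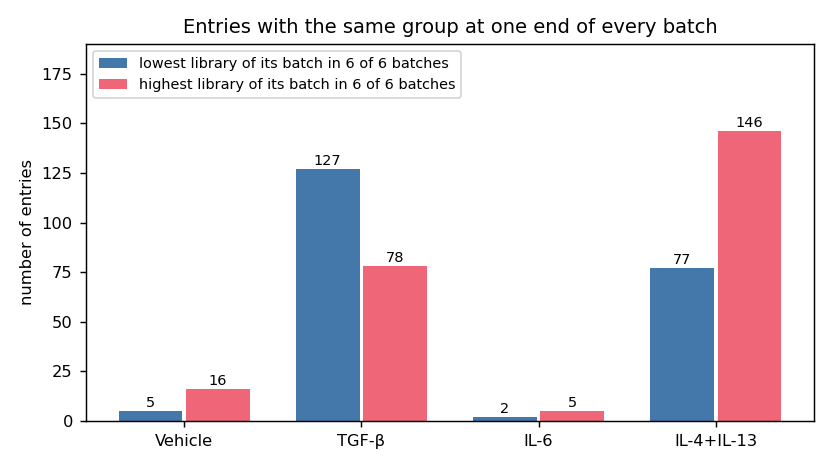
Number of the 29377 entries tested in which the library of a group was the lowest (blue) or the highest (red) of the 4 libraries in 6 of 6 batches. Vehicle and IL-6 took an end in few entries, and TGF-β and IL-4+IL-13 in 77 to 146.

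RARRES2 (chromosome 7, 150338329 to 150341629) encodes chemerin, a secreted chemoattractant for immune cells that was first described as a retinoid-responsive gene. Vehicle libraries had 493 to 5618 normalized counts with a median of 1411, and TGF-β libraries 142 to 2856 with a median of 512. The IL-6 range was 469.7 to 2492 with a median of 1027, and the IL-4+IL-13 range 600.2 to 3498 with a median of 991. TGF-β was the lowest of the 4 libraries in 5 of 6 batches, and 2.2% of all entries had it lowest in at least 5. All group ranges overlapped. TGF-β differed from vehicle by -1.42 ± 0.37 (SD, n = 6), a 2.67-fold lower level. IL-4+IL-13 differed from vehicle by -0.27 ± 0.53 (SD, n = 6), lower in 4 batches and higher in 2, and IL-6 by -0.39 ± 0.59 (SD, n = 6), also lower in 4. TGF-β was lower than IL-4+IL-13 in 6 of 6 batches, a difference of -1.15 ± 0.77 (SD, n = 6), and lower than IL-6 in 5, a difference of -1.03 ± 0.91 (SD, n = 6). The exception was batch 1, where IL-6 was the lowest library.

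SLC2A5 (chromosome 1, 9035106 to 9094195) encodes GLUT5, a transporter of fructose. Its vehicle libraries had 139 to 919.6 normalized counts with a median of 266, and its TGF-β libraries 47.3 to 389 with a median of 103. IL-6 libraries had 117 to 503 with a median of 238, and IL-4+IL-13 libraries 127 to 514 with a median of 171. Ranges overlapped, and TGF-β was the lowest in 5 of 6 batches, IL-4+IL-13 in batch 6. TGF-β differed from vehicle by -1.32 ± 0.35 (SD, n = 6), a 2.49-fold lower level. IL-4+IL-13 differed from vehicle by -0.52 ± 0.40 (SD, n = 6), lower in 5 batches, and IL-6 by -0.34 ± 0.53 (SD, n = 6), lower in 4. Against IL-6, TGF-β was lower in 6 of 6 batches, a difference of -0.97 ± 0.62 (SD, n = 6), and against IL-4+IL-13 in 5, a difference of -0.79 ± 0.66 (SD, n = 6). For neither gene was vehicle the highest library in more than 4 batches.

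R3HDML (chromosome 20, 44337043 to 44351238, plus strand) encodes a predicted secreted protein of the CAP superfamily, which also holds the cysteine-rich secretory proteins. Its TGF-β libraries had 165 to 459 normalized counts with a median of 388, all above the vehicle libraries at 66.9 to 161 with a median of 91.2. IL-4+IL-13 libraries had 24.9 to 68.5 with a median of 45.8, below nearly all vehicle libraries, and IL-6 libraries 33.2 to 195 with a median of 109. It was the 1 member of 6 whose TGF-β range lay wholly above that of vehicle, which was so for 0.0443% of entries. TGF-β exceeded vehicle by 1.66 ± 0.63 (SD, n = 6), a 3.16-fold higher level, and IL-4+IL-13 differed from vehicle by -1.20 ± 0.46 (SD, n = 6), a 2.30-fold lower level. IL-6 differed from vehicle by -0.04 ± 0.60 (SD, n = 6), higher in 4 batches. TGF-β was highest and IL-4+IL-13 lowest in every batch, an order shown by 7 of the entries tested (0.0238%). The promoter with GTCTAGAC and CAGACA shown above is that of this gene, and binding to it was not measured here.

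TMEM92 (chromosome 17, 50271406 to 50281485) encodes a small membrane protein of little-known function. Vehicle libraries had 39.9 to 571 normalized counts with a median of 115, and TGF-β libraries 100 to 604 with a median of 221. IL-4+IL-13 libraries had 8.93 to 53.5 with a median of 30.3, and IL-6 libraries 36.6 to 242 with a median of 120.5. IL-4+IL-13 was the lowest library in 6 of 6 batches, and its range lay wholly below that of TGF-β. TMEM92 and R3HDML were the 2 members whose TGF-β range lay wholly above that of IL-4+IL-13, beside 0.18% of entries. IL-4+IL-13 differed from vehicle by -2.36 ± 1.18 (SD, n = 6), a 5.14-fold lower level, and by -1.64 ± 0.46 (SD, n = 4) over batches 3 to 6. TGF-β exceeded vehicle in 5 batches, by 0.64 ± 0.92 (SD, n = 6), and was below it in batch 2, at -0.89. Without batches 2 and 4 the TGF-β difference was 0.88 ± 0.66 (SD, n = 4), and over batches 3 to 6 it was 1.17 ± 0.39 (SD, n = 4), higher in 4 of 4 each time. TMEM92 was called higher under TGF-β against vehicle in the fit of batches 3 to 6 and not in that of all batches.

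For both genes the contrast of the treatments with each other exceeded either contrast with vehicle. TGF-β exceeded IL-4+IL-13 by 2.86 ± 0.31 (SD, n = 6), or 7.28-fold, for R3HDML and by 3.01 ± 0.72 (SD, n = 6), or 8.04-fold, for TMEM92. Against IL-6, a comparison without vehicle libraries, TGF-β was higher in 6 of 6 batches, by 1.70 ± 0.58 for R3HDML and 1.05 ± 0.40 for TMEM92 (SD, n = 6). IL-4+IL-13 was lower than IL-6 in 6 of 6 batches, a difference of -1.16 ± 0.58 for R3HDML and -1.96 ± 0.47 for TMEM92 (SD, n = 6). The distance of vehicle from the mean of the treated libraries was small beside their range, at -0.14 ± 0.49 against 2.86 ± 0.31 for R3HDML and 0.71 ± 1.02 against 3.01 ± 0.72 for TMEM92 (SD, n = 6).

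**Figure D4:**
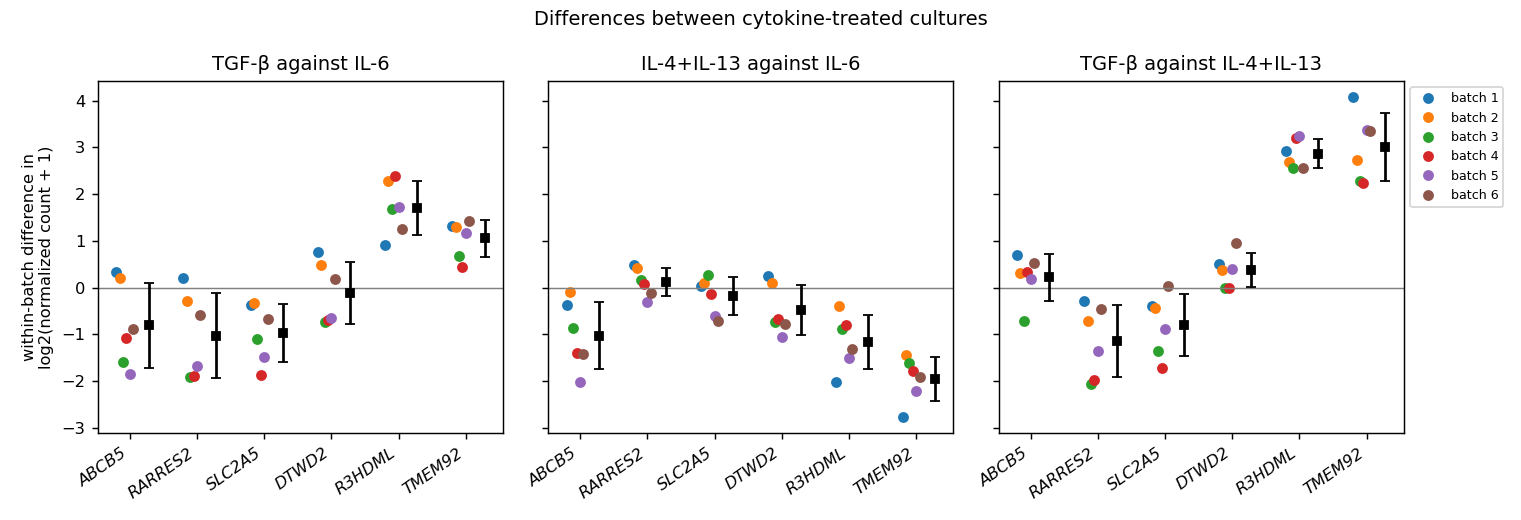
Within-batch difference of log2(normalized count + 1) between the cytokine-treated groups, without any vehicle library, with 1 coloured point per batch and a black square with bars for the mean and SD of 6 batches. R3HDML and TMEM92 lie above 0 for TGF-β against IL-6 and below 0 for IL-4+IL-13 against IL-6 in every batch, and the 2 upper ABCB5 points for TGF-β against IL-6 are batches 1 and 2.

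In the fit across all entries (edgeR's quasi-likelihood test with batch in the model), an entry was called where the Benjamini-Hochberg adjusted p fell below 0.05 and the log2 fold change exceeded 1 in size. TGF-β against vehicle called 4 of the 6 genes, ABCB5, RARRES2 and SLC2A5 lower and R3HDML higher, beside 0.143% of all entries. IL-4+IL-13 against vehicle called ABCB5, DTWD2, R3HDML and TMEM92 lower, beside 0.371%. The direct comparison called RARRES2 lower and R3HDML and TMEM92 higher under TGF-β, beside 1.18%. Nothing is read from these counts, since calls of this kind chose the genes. Against IL-6, TGF-β called R3HDML (0.0306% of entries) and IL-4+IL-13 called R3HDML and TMEM92 (0.279%). The calls against IL-6 are not independent of the choice of genes, since the side set against IL-6 had helped to make that choice. They are given as a description too. IL-6 against vehicle called 0 of 6 members and 0 of all entries (0.0%), with 1400 entries at an unadjusted p under 0.05, while DESeq2 called 120 entries and 0 members. These calls depended on the libraries in the fit. R3HDML was no longer called between TGF-β and IL-6 without batch 3 or without batch 5. Between IL-4+IL-13 and IL-6 it was called without batch 2 or 4 but not without batch 1, 3, 5 or 6, and TMEM92 was not called without batch 5 or 6. Other members were called against IL-6 in some fits. Over batches 3 to 6, added after seeing the data, TGF-β also called ABCB5, RARRES2 and SLC2A5 lower (70 of 28443 entries called). IL-4+IL-13 also called ABCB5 lower there (94 entries called). DESeq2 over all batches called RARRES2 lower with TGF-β and ABCB5 lower with IL-4+IL-13, beside 248 and 255 of all entries. In the direct comparison RARRES2 was not called without batch 3, 4 or 5. Against vehicle, R3HDML under IL-4+IL-13 was not called without batch 3 or 5. When only the vehicle and IL-4+IL-13 libraries entered the fit, 2 of 6 members were called, ABCB5 and DTWD2. R3HDML and TMEM92 were then not called (adjusted p = 0.121 and 0.140, edgeR). For TGF-β against vehicle 0 of 6 members were called without batch 3 or without batch 5, 2 of 6 members without batches 2 and 4, and 0 when only the vehicle and TGF-β libraries entered the fit.

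The genes most like each member, by Pearson's r of levels centred within batches over the 24 libraries, fell into 3 pairs. These r describe libraries that share batches and treatments, over 16906 entries with a mean of at least 10 normalized counts. ABCB5 and DTWD2 had an r of 0.91 with each other, and both were most like ST6GALNAC3, a sialyltransferase, at 0.92 and 0.89. RARRES2 and SLC2A5 had an r of 0.92 with each other, and both were most like ENPP2, the enzyme autotaxin that makes lysophosphatidic acid, at 0.95 each. R3HDML and TMEM92 had an r of 0.86. R3HDML was most like IL11, a cytokine of the IL-6 family, at 0.96, then PMEPA1, an inhibitor of TGF-β signalling, at 0.95, and RUNX1, a transcription factor, at 0.94. TMEM92 was most like TGFBI, a TGF-β-induced matrix protein, LIF, another cytokine of the IL-6 family, and ITGA11, a collagen receptor subunit, at 0.97 each. Other near genes were PAQR5 and PDLIM1 for ABCB5, both at 0.89, MT1H and FRZB for RARRES2, at 0.94 and 0.93, DAB2 for SLC2A5, at 0.91, and ENPP5 and S100A4 for DTWD2, both at 0.88.

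Relatives of the members were taken from gene lists. Of 11 other ABC transporters tested, 23 transfer RNA modifying genes, 20 retinoid genes, 12 other hexose transporters and 7 enzymes of fructose and polyol metabolism, 0 of 73 were called by edgeR or DESeq2 in any of the 6 comparisons, with 3 to 15 at an unadjusted p under 0.05. That is near the background of 0.0% to 1.18% of all entries called, so nothing particular to these lists is read from it. Among those with the most counts, ABCC1 differed by -0.09 and ABCB8 by -0.00054 on edgeR's log2 scale under TGF-β against vehicle, and the transfer RNA methyltransferase NSUN2 by 0.07. The glucose transporters SLC2A1 and SLC2A3 differed by -0.48 and -0.01 in that comparison, the retinoid-binding gene CRABP1 by 0.36, and the enzymes ALDOA and AKR1B1 by -0.35 and -0.01. SLC2A12, a hexose transporter chosen after its values were seen, differed by -0.57 (adjusted p = 0.0343, edgeR), lower in 6 of 6 batches but short of the fold threshold. Of 4 listed chemerin receptor names 2 were tested, CMKLR1 and CMKLR2, and 0 were called by edgeR or DESeq2, with 0 at an unadjusted p under 0.05. CMKLR1 differed by 0.20 and CMKLR2 by -0.44 under TGF-β, with standard errors of 0.36 and 0.41.

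The CAP superfamily of R3HDML had calls in the direct comparison. Of 12 tested, 4 were called higher with TGF-β, beside 0.47% of all entries, and 0 with IL-4+IL-13, beside 0.711%. The median log2 fold change of the 12 was 0.61 beside -0.0048 over all entries. DESeq2 called the same 4 genes. CRISPLD2 differed by 1.01 (SE 0.19, adjusted p = 0.00383, edgeR). CLEC18A, CLEC18B and CLEC18C differed by 1.16, 1.23 and 1.28, each higher in 6 of 6 batches, but these 3 are near-identical copies whose reads the counting could split, so they are not separate observations. Against vehicle 0 of the 12 were called by either tool, beside 0.371% of all entries for IL-4+IL-13 and 0.143% for TGF-β in edgeR. At an unadjusted p under 0.05 were 5 under IL-4+IL-13 and 4 under TGF-β. The median was 0.16 for TGF-β, and -0.45 for the other treatment. CLEC18B and CLEC18C under TGF-β against vehicle, named after their values were seen, differed by 0.82 and 0.79 (adjusted p = 0.0124 and 0.0249, edgeR), higher in 6 of 6 batches each but short of the fold threshold. GLIPR1 and CRISPLD1 differed by 0.56 and -0.05 in the direct comparison and were not called.

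**Figure D5:**
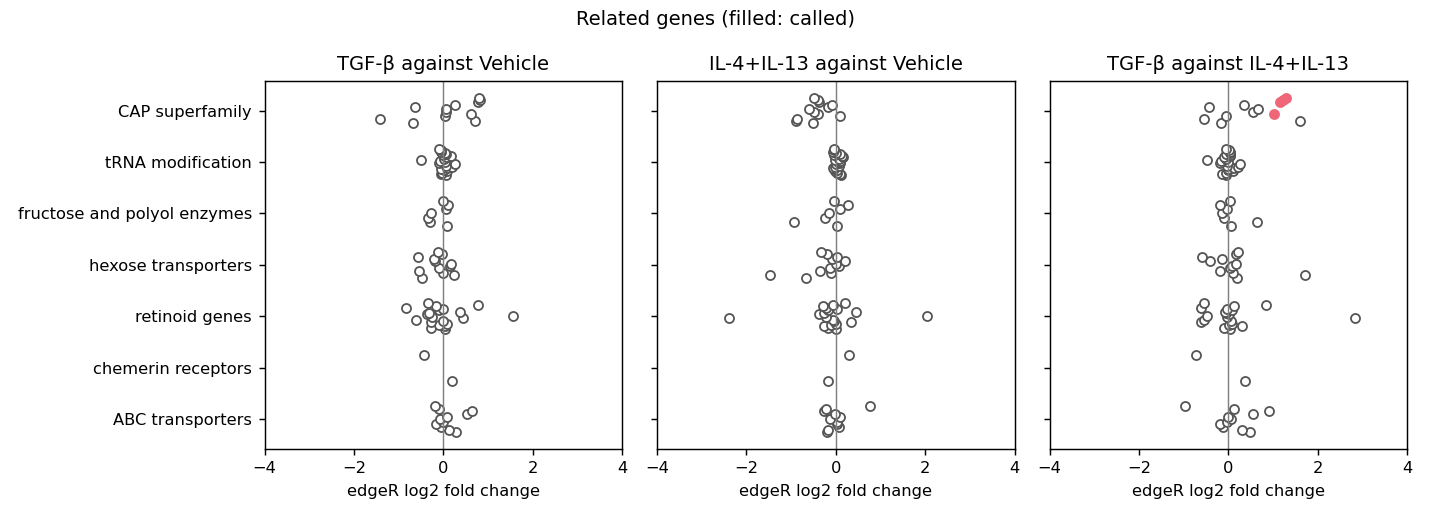
edgeR log2 fold change of each tested gene in the lists related to the members, for the TGF-β and IL-4+IL-13 groups, each against vehicle and then against each other, with 1 circle per gene and filled circles for called genes. The 4 called genes are CAP superfamily members in the direct comparison.

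The genes next to the members on the chromosome were examined for differences of the same kind. Of 12 nearest protein-coding neighbours 10 were tested, and 0 were called against vehicle under any treatment by edgeR or DESeq2. Over all entries edgeR called 0.371% for IL-4+IL-13, 0.0% for IL-6 and 0.143% for TGF-β, so nothing particular to neighbours is read from that 0. At an unadjusted p under 0.05 in edgeR's test were 2 of the 10 for IL-4+IL-13, 1 for IL-6 and 5 for TGF-β. Over all 29377 entries these counts were 2673, 1400 and 2141. ITGB8 and SP8 beside ABCB5 differed by -0.28 and -1.43 under TGF-β on edgeR's log2 scale, SP8 at no more than 21 counts. LRRC61, which ends 173 bases from RARRES2, differed by -1.34 (SE 0.93) at no more than 22 counts. REPIN1 on the other side of RARRES2 differed by -0.12. FITM2 and HNF4A beside R3HDML differed by 0.09 and -0.17, GPR157 beside SLC2A5 by -0.31, DMXL1 beside DTWD2 by -0.23 and XYLT2 beside TMEM92 by -0.07. Under IL-4+IL-13 against vehicle FITM2 differed by -0.17 and HNF4A, at no more than 58 counts, by -1.32 (SE 0.77). In the direct comparison FITM2 differed by 0.26 and HNF4A by 1.15 (SE 0.73), and neither was called. COL1A1, a collagen gene 69775 bases from TMEM92, was called in the direct comparison, at 1.31 (adjusted p = 0.00675, edgeR). It was 1 of the 10 tested, beside 1.18% of all entries. Another 4 annotations overlap SLC2A5, DTWD2 and R3HDML, R3HDML-AS1 among them, none with a row of its own, and without a stated strand their reads cannot be told apart from those of the members.

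Markers of other cell types moved with some of these comparisons. The summed level of 9 mesenchyme markers was 149780 to 491460 normalized counts under TGF-β, 115690 to 382230 in vehicle and 95959 to 228760 under IL-4+IL-13, and TGF-β exceeded IL-4+IL-13 in 6 of 6 batches by 0.63 ± 0.44 (SD, n = 6), as R3HDML and TMEM92 did by more. That sum was mostly collagen counts, and COL1A1, the neighbour of TMEM92 above, was the 1 mesenchyme marker called. The 9 genes had a median log2 fold change of 0.07 and a range of -0.30 to 1.31. Mesenchyme was not alone in this contrast. For 4 endothelial markers TGF-β minus IL-4+IL-13 was -1.30 ± 0.33 (SD, n = 6), below 0 in 6 of 6 batches. The log2 fold changes of those 4 genes ranged from -1.88 to -0.72, with 1 called. For 7 glial markers the difference was 0.53 ± 0.24 (SD, n = 6), above 0 in 6 of 6 batches. Their median log2 fold change was 0.23, with 1 called. The 7 glial markers summed to 3424 to 6252 under TGF-β and 2204 to 4143 in vehicle, higher in 6 of 6 batches by 0.45 ± 0.32 (SD, n = 6). The median log2 fold change of the 7 was -0.06, with 4 below 0, so the sum does not stand for most of them. Of the 7, 1 was called higher, and the largest log2 fold change was 1.12. The 6 melanocyte markers summed to 2864 to 23719 under TGF-β and 3140 to 26275 in vehicle, lower in 5 batches, a difference of -0.52 ± 0.44 (SD, n = 6), with TYRP1 called lower at -1.08 (adjusted p = 0.0154, edgeR). Under IL-4+IL-13 that sum was also lower in 5 batches, a difference of -0.12 ± 0.39 (SD, n = 6), where ABCB5 differed by -1.81. The 6 genes there had a median log2 fold change of 0.05 and a range of -0.64 to 0.55, with 0 called, so the sum does not stand for all of them. The summed level of 4 endothelial markers was higher under IL-4+IL-13 than in vehicle in 6 of 6 batches, by 0.77 ± 0.56 (SD, n = 6). The log2 fold changes of the 4 genes ranged from -0.30 to 1.27, with a median of 0.59 and 0 called. The summed 4 proliferation markers differed from vehicle in the same direction in all treated groups, by 0.59 with TGF-β (higher in 4 of 6 batches), 1.05 with IL-4+IL-13 (5 of 6) and 0.98 with IL-6 (4 of 6). Each was smaller than its SD over batches, which was at least 1.33, and these comparisons share the vehicle libraries. The 9 neuronal markers differed from vehicle by 0.00 ± 0.46 (SD, n = 6) with TGF-β, and by -0.01 ± 0.45 (SD, n = 6) with IL-4+IL-13. Under IL-4+IL-13 against vehicle 1 of 7 sensory neuron markers was called higher and 1 of 6 epithelial markers lower. The median log2 fold changes of these lists were 0.03 and -0.21. The part of these cell types in the members' differences was not tested.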

How the data were processed

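RNA was measured in 24 libraries, 4 treatments in each of 6 batches, and the group and batch of each came from the labels. The authors deposited raw read counts per gene. Reads had been trimmed with Trimmomatic 0.30 and aligned to GRCh38.p14, per the labels. Strandedness, aligner and counting tool are not given in the sources used here. Libraries held 33342682 to 39817784 counts, and depth limits chiefly the genes with few counts.

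The members and gene lists were chosen with earlier results of these data known. The first entry of each symbol was used. Levels were log2(normalized count + 1) with size factors of DESeq2 1.42.0, and differences were taken within batches, which pair the libraries per the labels. The 29377 of 36468 entries with a total of at least 10 counts were fitted with edgeR 4.0.16 in R 4.3.3 (TMM, robust quasi-likelihood F test, batch and treatment, Benjamini-Hochberg adjustment). Standard errors were obtained by dividing each log2 fold change by the root of its F value. The fit was checked on simulated counts. Named genes were the members, their nearest protein-coding neighbours with a row, the 3 most correlated entries per member, and, per related list, called genes and up to 2 abundant ones. Of these, 3 genes are not reported here. Alternatives were DESeq2's test, its size factors, other filters, no batch term, only the groups compared, the first entry of each symbol, a pseudocount of 0.5, TMM levels and leaving out each batch. Batches 3 to 6 alone and batches 1, 3, 5 and 6 alone were added after seeing the data. Replicates are separate differentiations of 1 line, so p-values measure their spread.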

Additional observations from a re-analysis of the deposited data

Results flagged for a closer look

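In 60 groups of 6 values, 2 had an extreme sample far from the others, which chance gives in about 1 of 20 groups. The within-batch difference of ABCB5 between TGF-β and IL-4+IL-13 was lowest in batch 3, at -0.72, the 1 batch of 6 in which TGF-β was the lower. The level of SLC2A5 under IL-4+IL-13 was highest in batch 1, at 9.01 on the log2 scale, and batch 1 was the highest of the 6 batches for that gene in the other 3 groups too.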

How the results depend on the processing

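All 396 alternative values of the 36 within-batch differences moved by less than their spread over batches. For runs that left out batches this was fixed, since dropping 1 or 2 of 6 values moves a mean by less than their SD. In each alternative run 2 members, ABCB5 and DTWD2, had vehicle at one end of every batch. Leaving out 1 batch could not change that count, as these 2 had it in 6 of 6 batches and the others in at most 4. Nothing is read from either result for those runs. Counts of called entries depended far more on the fit. DESeq2 called 234 for TGF-β against vehicle, 292 for IL-4+IL-13 against vehicle, 120 for IL-6 against vehicle, 627 for TGF-β against IL-4+IL-13, 248 for TGF-β against IL-6 and 255 for IL-4+IL-13 against IL-6, where edgeR called 42, 109, 0, 347, 9 and 82. Without the replicate block (batch left out of the model) edgeR called 0, 13, 0, 49, 0 and 13 in that order, with 766, 577 and 721 entries at an unadjusted p under 0.05 behind the 3 counts of 0. With only the groups compared in the fit it called 0 for TGF-β against vehicle (1491 unadjusted), 25 for IL-4+IL-13 against vehicle and 29 for TGF-β against IL-6, and with the filterByExpr filter 17 for the last. Batches 3 to 6 gave 102 for TGF-β against vehicle and 70 for TGF-β against IL-6, and batches 1, 3, 5 and 6 gave 7 for TGF-β against vehicle. Leaving out 1 batch gave 1 to 40 (1 without batch 3 and 1 without batch 5), 60 to 122, 0 to 0, 196 to 444, 0 to 22 and 52 to 109. The cause was not tested. Across the alternatives 0 to 5 members were called for TGF-β against vehicle and 0 to 4 for IL-4+IL-13 against vehicle. The lowest member value was 9 counts, for TMEM92 under IL-4+IL-13 in batch 6, where counting error is largest.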
